A study of Homo sapiens with 15 samples.

Results

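The 35 genes described here encode aminoacyl-tRNA synthetases, the enzymes that join each amino acid to its tRNA before translation. They were taken by symbol from a list of 19 cytosolic genes (symbols ending in 1, with FARSA and FARSB) and 16 mitochondrial genes (symbols ending in 2). The day 7 table of UMI counts listed 34 of them among 15230 genes, and the day 3 and day 7 table listed 35 among 12575 genes. The cells were immortalized human astrocytes (IHA), an established fetal line that carries SV40. They were made to express IDH1 R132H, a mutant isocitrate dehydrogenase, by adding doxycycline to the medium (1 µg/ml). The measured libraries were 5 at day 7 of doxycycline (1 with the title tag b1 and 4 with b2), 4 at day 3 (all b2) and 6 untreated (3 of b1 and 3 of b2). The tags b1 and b2 are taken as batches, and libraries are named by the number in their titles.

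In bulk MARS-seq, transcripts are counted by their 3′ ends, with unique molecular identifiers (UMIs) so that a count stands for a molecule. Library totals ran from 2573290 to 5567651 UMIs in the day 7 table, and from 1816599 to 4656705 UMIs in the day 3 and day 7 table. All samples are labelled wild type for IDH1, and no library had doxycycline without the inducible gene, and the labels give untreated cells no day. The mutant enzyme, doxycycline itself, which as background is known to act on mitochondrial ribosomes, and time in culture cannot therefore be told apart. The labels do not say that libraries of a group came from separate cultures, and the p-values then measure only the spread between these libraries. The targeted gene, IDH1, had 43.4 CPM (UMI counts scaled to a common library total) in the day 7 b1 library and 35.4 ± 4.59 CPM in day 7 b2 libraries (SD, n = 4), against 35.9 ± 0.841 CPM in untreated b1 and 31.5 ± 4.57 CPM in untreated b2 libraries (SD, n = 3 each). The 3′ counts do not tell the mutant from the wild-type allele. Its log2 change at day 7 was 0.22 ± 0.11 (SE; edgeR adjusted p = 0.178) and at day 3 0.21 ± 0.14 (edgeR adjusted p = 0.494). Of 10 astrocyte markers, GFAP, AQP4, ALDH1L1 and SLC1A2 were listed in neither table, whereas VIM averaged 6210 to 9930 CPM over the groups. Fewer cells of a type and less RNA per cell cannot be told apart in such bulk libraries.

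Each synthetase recognises its own tRNAs and amino acid, and cells keep separate sets for the cytosol and for the mitochondrion, most of them encoded by separate nuclear genes. GARS1 and KARS1 are exceptions, since each makes both the cytosolic and the mitochondrial enzyme. Several cytosolic enzymes sit in a multisynthetase complex held together by the scaffold proteins AIMP1, AIMP2 and EEF1E1. When amino acids run short, uncharged tRNA activates the kinase GCN2, which phosphorylates eIF2alpha and favours translation of the transcription factor ATF4. ATF4 in turn drives genes of amino acid uptake and synthesis, and many cytosolic synthetase genes are among its known targets. A list of 12 such targets was used: AARS1, CARS1, EPRS1, GARS1, IARS1, LARS1, MARS1, NARS1, SARS1, TARS1, WARS1 and YARS1.

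ATF4 binds, with C/EBP partners, DNA elements with the core TGATGNAA, which reads TTNCATCA on the other strand. RefSeq promoter windows of 300 bases (250 before to 50 after the start, GRCh38.p14) were at hand for 30 of the 35 genes, and this core, on either strand, was in the windows of 7 of 16 cytosolic genes (43.8%) and 1 of 14 mitochondrial genes (7.14%). Over all 35116 promoter windows 3.62% held it, and over all 27305 genes with a window 4.46%. The 7 cytosolic genes were all among the 10 of the ATF4 target list that had a window, and the 6 other cytosolic genes had no match. The sites are shown because 7 of the genes that fell at day 3 carry them. Each line gives 30 bases on the gene's strand, 5′ to 3′, with the 8 bases of the match in capitals.
GARS1: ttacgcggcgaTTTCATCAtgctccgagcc
CARS1: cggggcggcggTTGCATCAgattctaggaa
MARS1: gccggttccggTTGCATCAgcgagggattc
AARS1: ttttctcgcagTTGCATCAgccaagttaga
IARS1: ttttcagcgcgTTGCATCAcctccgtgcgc
NARS1: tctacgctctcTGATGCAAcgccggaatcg
TARS1: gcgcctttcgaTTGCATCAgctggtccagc
YARS2: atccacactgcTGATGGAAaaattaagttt

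The printed stretches lie at chr7:30594834-30594863 (GARS1, plus strand), chr11:3057407-3057436 (CARS1, minus strand), chr12:57488053-57488082 (MARS1, plus strand) and chr16:70289675-70289704 (AARS1, minus strand). Those of IARS1 (minus strand), NARS1 (minus strand), TARS1 (plus strand) and YARS2 (minus strand) lie at chr9:92293692-92293721, chr18:57621804-57621833, chr5:33440956-33440985 and chr12:32756076-32756105. GARS1, CARS1 and TARS1 each had a further RefSeq window, from another start, without a match. Counted from the start of the window that held the match, with the first transcribed base as 1, the matches began at -33 in GARS1, -2 in CARS1, -4 in MARS1, -187 in AARS1 and -13 in IARS1. They began at 15 in NARS1 and 3 in TARS1, within the first exon, and at -197 in YARS2. In 6 of the 8 the matched letters were TGATGCAA on the one strand or the other, in GARS1 TGATGAAA and in YARS2 TGATGGAA. SARS1, EPRS1 and WARS1 of the ATF4 target list had windows without a match, and LARS1 and YARS1 had no window. A match is a description of letters and does not show binding.

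The first comparison was of day 7 of doxycycline with no doxycycline, fitted over both batches with a batch term. These cytosolic genes fell: GARS1, CARS1, SARS1, EPRS1, YARS1, AARS1, NARS1 and MARS1, which charge the tRNAs of glycine, cysteine, serine, glutamate and proline, tyrosine, alanine, asparagine and methionine. FARSA, the alpha subunit of phenylalanyl-tRNA synthetase, KARS1 (lysine) and HARS1 (histidine) rose. That is 8 lower and 3 higher of 18 cytosolic genes tested, where 7.28% of all 12449 genes tested were lower and 8.43% higher (edgeR adjusted p below 0.05). Of the 15 mitochondrial genes tested, EARS2 rose and 0 fell, with 4 at an unadjusted p below 0.05 and 1 called by DESeq2 and by limma-voom as well. The median log2 change was -0.22 over the cytosolic genes and 0.05 over the mitochondrial ones, beside -0.02 over all genes. With library size alone as the scaling, the cytosolic split was 11 lower and 2 higher.

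GARS1 (chromosome 7, 30594681 to 30634033, plus strand, GRCh38), glycyl-tRNA synthetase, had the largest fall among the genes that passed. It stood at 115 CPM in the day 7 b1 library, against 149, 159 and 165 CPM in untreated b1 libraries. In b2 it stood at 206, 212, 225 and 251 CPM at day 7, against 366, 376 and 389.9 CPM without doxycycline. Every day 7 library lay below every untreated library of its batch, and the log2 change was -0.68 ± 0.07 (SE; edgeR adjusted p = 1.1e-06), a 1.6-fold difference. CARS1 (chromosome 11, 3000922 to 3057613, minus strand), cysteinyl-tRNA synthetase, had 46.2 CPM at day 7 in b1, against 59.1, 61.4 and 66.2 CPM untreated. In b2 it had 72.3, 74.7, 77.5 and 83.4 CPM at day 7, against 116, 135 and 136 CPM untreated. Its groups did not overlap in either batch, and the log2 change was -0.67 ± 0.08 (edgeR adjusted p = 6.1e-06).

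SARS1, seryl-tRNA synthetase, had 174 CPM at day 7 in b1, against 179.7, 186 and 199.8 CPM untreated. In b2 it had 132, 144, 154 and 160.1 CPM at day 7, against 222, 229 and 232 CPM untreated. The gap was wide in b2 and small in b1, and the log2 change over both was -0.48 ± 0.08 (edgeR adjusted p = 3.8e-04). AARS1, alanyl-tRNA synthetase, had 92.8 CPM at day 7 in b1, against 93.6, 98.6 and 103 CPM untreated. In b2 it had 52.2, 60.5, 61.0 and 61.6 CPM at day 7, against 82.8, 86.4 and 88.4 CPM untreated. AARS1 thus lay just under its untreated libraries in b1 and well under them in b2, with a log2 change of -0.41 ± 0.09 (edgeR adjusted p = 0.00273). YARS1, tyrosyl-tRNA synthetase, had 139.9 CPM at day 7 in b1, against 141, 142 and 152 CPM untreated. In b2 it had 140.5, 144, 147 and 164 CPM at day 7, against 218, 224 and 225 CPM untreated. Its fall of -0.43 ± 0.08 on the log2 scale (edgeR adjusted p = 9.4e-04) came with a wide gap in b2 and a small one in b1.

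EPRS1, the joined glutamyl- and prolyl-tRNA synthetase of the complex, had 34.3 CPM at day 7 in b1, against 53.0, 61.3 and 62.5 CPM untreated. In b2 it had 99.7, 107, 108 and 116 CPM at day 7, against 121, 133 and 159 CPM untreated. The groups did not overlap in either batch, and the log2 change was -0.45 ± 0.09 (edgeR adjusted p = 0.00217). NARS1, asparaginyl-tRNA synthetase, had 98.8 CPM at day 7 in b1, against 123, 124 and 134 CPM untreated, and 138, 159.9, 168 and 186 CPM at day 7 in b2, against 202, 221 and 224 CPM untreated. Its log2 change was -0.39 ± 0.08 (edgeR adjusted p = 0.00123), again with no overlap within a batch. EPRS1 and NARS1 passed in b2 with these counts but not with those of the other table for the same batch, where their log2 changes were -0.17 (edgeR adjusted p = 0.489) and -0.21 (edgeR adjusted p = 0.0746). Over the 7 libraries that the tables share, EPRS1 had 2303 UMIs in the other table, against 3589 in the day 7 table, and NARS1 had 4041 against 5580.

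MARS1 (chromosome 12, 57475445 to 57517569, plus strand), methionyl-tRNA synthetase, went in different directions in the batches. It had 204 CPM at day 7 in b1, above the 164, 173 and 195 CPM of the untreated libraries. In b2 it had 180.1, 180.4, 188 and 192 CPM at day 7, below the 262, 272 and 274 CPM of the untreated ones. The log2 change over both was -0.32 ± 0.10 (edgeR adjusted p = 0.0386), and it did not pass with DESeq2 (adjusted p = 0.0524). Nor did it pass without any one of 8 libraries: untreated b2 1, 2 and 4, untreated b1 1, and day 7 b2 17, 18, 19 and 20, with edgeR adjusted p-values of 0.0683 to 0.112. The last kilobase of MARS1 overlaps DDIT3, a stress gene of the opposite strand, and the sources used here do not say whether the counting used strand. DDIT3 had a log2 change of -0.16 ± 0.10 (edgeR adjusted p = 0.27).

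**Figure D1:**
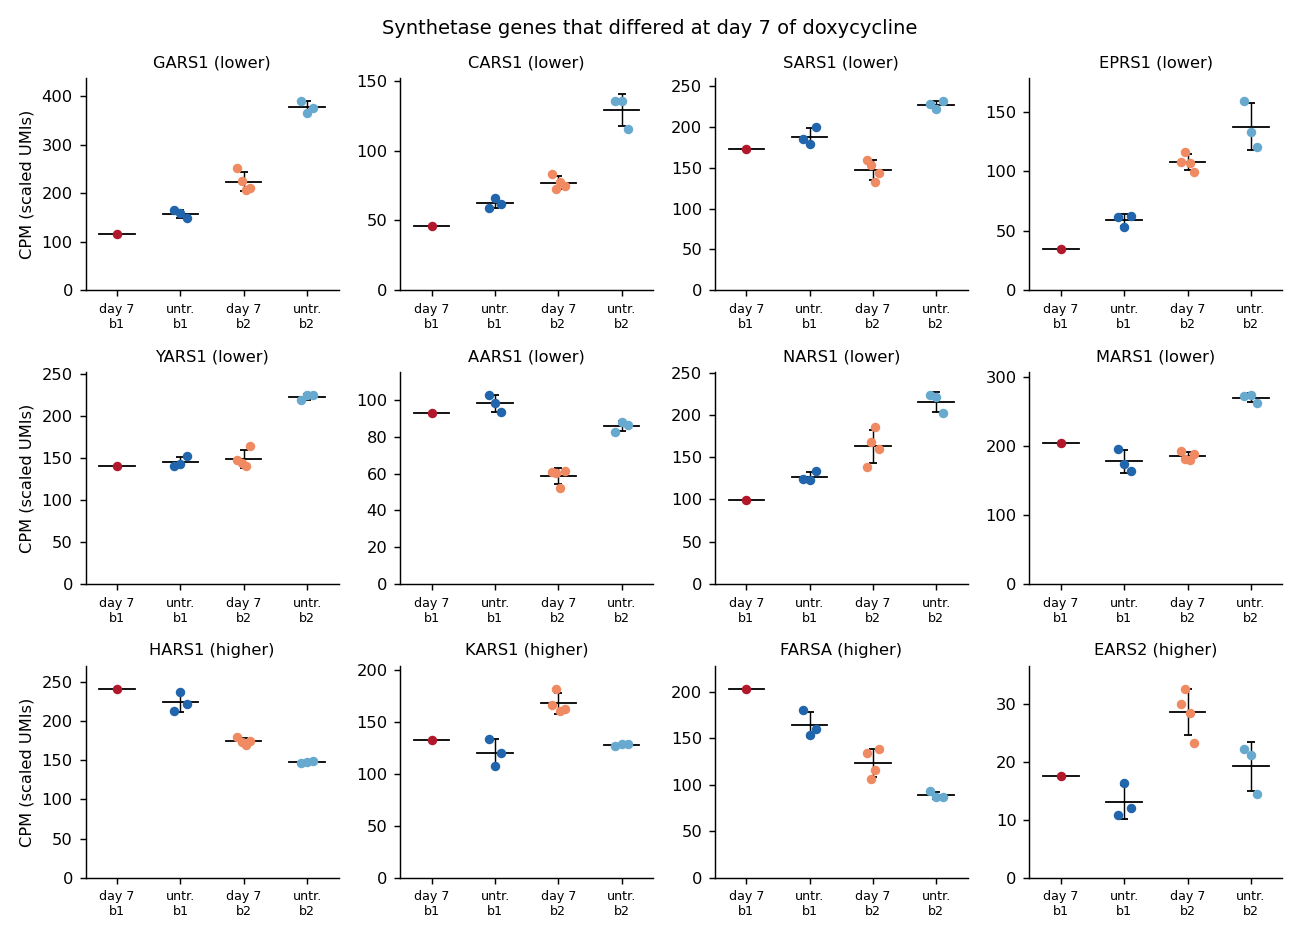
Level (CPM of scaled UMIs) of the 12 synthetase genes that passed the test at day 7, by library. Points are libraries, lines are group means and bars are 1 SD, with day 7 left of untreated in each batch; GARS1 lies at 206 to 251 CPM at day 7 in b2, under the 366 to 389.9 CPM of the untreated libraries.

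Among the genes that rose, FARSA had 203 CPM at day 7 in b1, against 154, 160.3 and 179.9 CPM untreated. In b2 FARSA had 106, 116, 134 and 138 CPM at day 7, against 86.4, 86.7 and 93.0 CPM untreated. Day 7 lay above untreated in both batches, and the log2 change was 0.42 ± 0.08 (edgeR adjusted p = 0.00112). The beta subunit of the same enzyme, FARSB (chromosome 2, 222570536 to 222656337, minus strand), had 0 to 7 UMIs per library in the day 7 table and was not tested there. In the 7 shared libraries FARSB had 3306 UMIs in the other table, against 21 in the day 7 table, so that the near-zero counts were found in the day 7 table and not in the other. KARS1 had 132 CPM at day 7 in b1, within the 107, 119.7 and 134 CPM of untreated libraries, and 160.2, 162, 166 and 182 CPM at day 7 in b2, above the 127, 128 and 129 CPM of untreated ones. Its log2 change was 0.32 ± 0.08 (edgeR adjusted p = 0.00632).

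HARS1 had 242 CPM at day 7 in b1, against 212, 222 and 238 CPM untreated, and 169.6, 174, 175 and 179.9 CPM at day 7 in b2, against 146, 148 and 149.5 CPM untreated. The groups did not overlap, but the change was small, at 0.20 ± 0.06 on the log2 scale (edgeR adjusted p = 0.037). HARS1 did not pass without any one of 6 libraries (untreated b2 1, 2 and 4, untreated b1 3, day 7 b2 18 and 20), with edgeR adjusted p-values of 0.052 to 0.106, nor with library size alone (edgeR adjusted p = 0.179). HARS1 and the mitochondrial HARS2 are read in opposite directions from starts 85 bases apart on chromosome 5, so that their promoter windows overlap over 184 bases (140691321 to 140691504). HARS2 had a log2 change of 0.07 ± 0.11 (edgeR adjusted p = 0.74). The last kilobase of HARS1 overlaps WDR55, a gene of the opposite strand. As for MARS1, the sources used here do not say whether the counting used strand.

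EARS2 (chromosome 16, 23522014 to 23557731, minus strand) encodes mitochondrial glutamyl-tRNA synthetase, which also loads glutamate on the mitochondrial glutamine tRNA. It had 17.5 CPM at day 7 in b1, against 10.8, 12.0 and 16.4 CPM untreated, and 23.2, 28.4, 29.9 and 32.6 CPM at day 7 in b2, against 14.4, 21.1 and 22.1 CPM untreated. Day 7 lay above untreated in both batches, with a log2 change of 0.52 ± 0.14 (edgeR adjusted p = 0.0141). Without untreated b2 library 4 the log2 change was 0.42 (edgeR adjusted p = 0.0583). The other table held 42.2% of its UMIs in the shared libraries, and there the b2 change was 0.19 (edgeR adjusted p = 0.552).

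The most abundant cytosolic genes that did not pass at day 7 were QARS1, TARS1 and WARS1, which charge the tRNAs of glutamine, threonine and tryptophan. QARS1 had 228 CPM at day 7 in b1, against 225, 226 and 232 CPM untreated, and 189, 200, 209 and 214 CPM at day 7 in b2, against 209, 231 and 236 CPM untreated (log2 change -0.11 ± 0.07). TARS1 had 108 CPM at day 7 in b1, against 105, 125 and 125 CPM untreated, and 171, 188, 192 and 205 CPM at day 7 in b2, against 181, 193 and 206 CPM untreated (log2 change -0.06 ± 0.07). The groups of both genes overlapped or touched in each batch. WARS1 had 159 CPM at day 7 in b1, above the 134, 136 and 143 CPM untreated, but 117, 123, 132 and 138 CPM at day 7 in b2, below the 165, 171 and 172 CPM untreated. Its log2 change was -0.23 ± 0.09 over both batches (edgeR adjusted p = 0.0865), and without the day 7 b1 library it was -0.40 (edgeR adjusted p = 5.0e-04). IARS1 (isoleucine), LARS1 (leucine), RARS1 (arginine) and VARS1 (valine) had log2 changes of -0.22 to 0.08. With the b2 counts in the day 3 and day 7 table RARS1 was higher at day 7 (log2 change 0.33, edgeR adjusted p = 0.0391), against 0.23 (edgeR adjusted p = 0.185) in b2 of the day 7 table. LARS1 had an edgeR adjusted p of 0.0576 and passed without untreated b2 library 4 or day 7 b2 library 19, at 0.0395 and 0.0435. IARS1 (0.0961) passed without day 7 b2 library 18, at 0.0492.

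Among the mitochondrial genes, CARS2 (cysteine), TARS2 (threonine) and IARS2 (isoleucine) were the most abundant. CARS2 had 90.9 CPM at day 7 in b1, against 95.9, 99.6 and 99.7 CPM untreated, and 118, 119, 119.6 and 129.6 CPM at day 7 in b2, against 106, 112 and 117 CPM untreated (log2 change 0.06 ± 0.07). TARS2 had 27.5 CPM at day 7 in b1, against 25.7, 27.7 and 35.1 CPM untreated, and 53.6, 54.3, 54.4 and 57.4 CPM at day 7 in b2, against 58.0, 63.7 and 73.1 CPM untreated (log2 change -0.21 ± 0.10, edgeR adjusted p = 0.143). CARS2 was lower at day 7 than untreated in b1 and higher in b2, and TARS2 was lower than every untreated library in b2 alone. With the b2 counts in the day 3 and day 7 table TARS2 fell at day 7 (log2 change -0.32, edgeR adjusted p = 0.0166), against -0.23 (edgeR adjusted p = 0.13) in b2 of the day 7 table. IARS2 had 26.3 CPM at day 7 in b1, against 34.8, 43.0 and 44.0 CPM untreated, and 33.7, 56.8, 61.2 and 68.3 CPM at day 7 in b2, against 42.8, 52.2 and 54.7 CPM untreated (log2 change -0.01 ± 0.20). The other 11 mitochondrial genes that did not pass had log2 changes of -0.34 (RARS2) to 0.32 (SARS2). RARS2 passed without untreated b2 library 2 (log2 change -0.45, edgeR adjusted p = 0.0369).

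Day 3 of doxycycline was set against no doxycycline within b2, in the other table. At this time 10 of 19 cytosolic genes fell and 0 rose, where 1.67% of all 10586 genes tested were lower and 1.84% higher. All 10 were on the list of 12 ATF4 targets. That list was drawn up with earlier results of these data known, so that the overlap is no independent support. The remaining members of the list, EPRS1 and LARS1, had log2 changes of -0.29 and -0.14. The 0 rises were also 0 with DESeq2 and with limma-voom, and 12 of the 19 genes had an unadjusted edgeR p below 0.05 in either direction. None of the 16 mitochondrial genes passed with edgeR, DESeq2 or limma-voom, and 5 had an unadjusted edgeR p below 0.05. Of these 5, PARS2 (-0.66 ± 0.26), FARS2 (-0.46 ± 0.15), NARS2 (-0.39 ± 0.18) and TARS2 (-0.26 ± 0.10) were lower, and SARS2 (0.30 ± 0.11) was higher. PARS2 had 9 to 17 UMIs per day 3 library, whereas CARS1, with the same log2 change, had an SE of 0.09 and passed. A missing call at low counts therefore does not show that a gene stayed level. The medians were -0.31 over the cytosolic genes, 0.02 over the mitochondrial ones and 0 over all genes.

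GARS1 was again the gene with the largest change. Its libraries had 212, 229.8, 231 and 233 CPM at day 3, against 442, 446 and 471 CPM untreated, a log2 change of -1.0 ± 0.07 (edgeR adjusted p = 1.1e-10). MARS1 had 172, 196, 202 and 206 CPM at day 3, against 316, 331 and 333 CPM untreated (log2 change -0.75 ± 0.07, edgeR adjusted p = 3.0e-08). YARS1 had 144, 146, 154 and 164 CPM at day 3, against 249.6, 257 and 259 CPM untreated (log2 change -0.75 ± 0.07, edgeR adjusted p = 5.0e-08). For these genes every day 3 library lay far below the lowest untreated one. The antisense neighbour of MARS1, DDIT3, had a log2 change of -0.02 ± 0.11 at day 3.

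CARS1 had 93.9, 98.2, 102 and 102 CPM at day 3, against 136, 164 and 166 CPM untreated (log2 change -0.66 ± 0.09, edgeR adjusted p = 1.2e-05). SARS1 had 129.7, 136, 141 and 146 CPM at day 3, against 212, 214 and 219 CPM untreated (log2 change -0.64 ± 0.08, edgeR adjusted p = 4.6e-06). Neither gene's groups overlapped, and the day 3 libraries were close together. AARS1 had 67.6, 69.1, 70.4 and 71.3 CPM at day 3, against 101, 105 and 109.6 CPM untreated (log2 change -0.60 ± 0.09, edgeR adjusted p = 6.0e-05). WARS1 had 118, 132, 139.6 and 146 CPM at day 3, against 192, 197 and 198 CPM untreated (log2 change -0.54 ± 0.08, edgeR adjusted p = 5.6e-05). WARS1, which is also known as an interferon-induced gene, was thus lower in each day 3 library than in each untreated one.

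The remaining falls were smaller. IARS1 had 150.5, 155, 178 and 194 CPM at day 3, against 201, 209 and 244 CPM untreated (log2 change -0.37 ± 0.09, edgeR adjusted p = 0.0178). TARS1 had 147, 148, 154 and 173 CPM at day 3, against 174, 199.6 and 204 CPM untreated (log2 change -0.31 ± 0.08, edgeR adjusted p = 0.027). NARS1 had 133, 139.6, 144 and 155 CPM at day 3, against 163, 178 and 188 CPM untreated (log2 change -0.31 ± 0.08, edgeR adjusted p = 0.0289). The groups did not overlap, but the gap was narrow in each gene, and these 3 calls were lost when any one of several libraries was left out. IARS1 did not pass without untreated b2 1 or day 3 b2 11 or 12 (edgeR adjusted p of 0.0578 to 0.132). TARS1 did not pass without untreated b2 1 or 4 or day 3 b2 10, 11 or 12 (0.0733 to 0.145), and NARS1 without untreated b2 1 or 2 or day 3 b2 9, 11 or 12 (0.0601 to 0.14).

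Untreated b2 libraries 1 and 2 carry column names that b1 and b2 samples share in the labels, and were assigned to b2 because the other column names in that table are all of b2. Without both of them 6 cytosolic genes were lower (GARS1, MARS1, YARS1, SARS1, AARS1 and WARS1), with the 1 untreated library left assumed to vary like the others. CARS1 then had a log2 change of -0.46 (edgeR adjusted p = 0.129). FARSA (log2 change 0.26) and KARS1 (0.25), which rose at day 7, did not pass at day 3, and KARS1 (edgeR adjusted p = 0.0599) passed without day 7 b2 library 17, at 0.0325. EPRS1 passed without day 3 b2 library 9 (log2 change -0.45, edgeR adjusted p = 0.0456). FARSB, well counted in this table, had 121, 131, 140.4 and 144 CPM at day 3, against 115, 121 and 128 CPM untreated, a log2 change of 0.14 that did not pass.

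**Figure D2:**
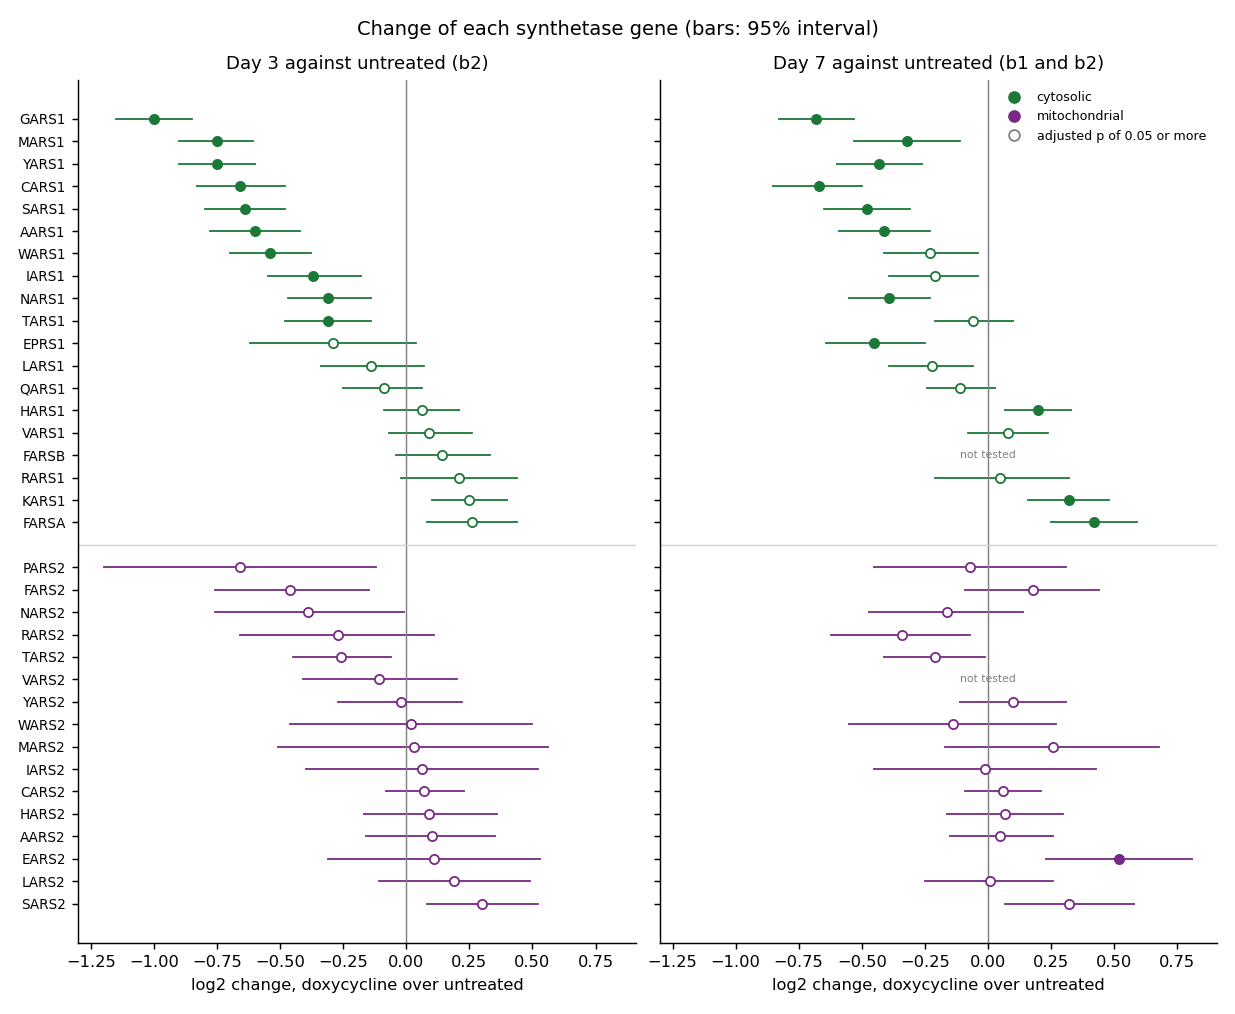
Log2 change over untreated of each synthetase gene at day 3 (batch b2) and at day 7 (both batches), with 95% intervals; filled points passed an adjusted p of 0.05. GARS1, at -1.0 at day 3 and -0.68 at day 7, leads the cytosolic genes, and EARS2, at 0.52, is the filled mitochondrial point.

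Of the cytosolic genes, 7 were lower at both times, 1 (EPRS1) at day 7 and not day 3, and 3 (WARS1, IARS1 and TARS1) at day 3 and not day 7. The tables share untreated libraries, so that these counts are not independent. The day 7 calls are of both batches, and the day 3 calls of b2 alone, in the other table. This split is therefore not one of time alone. Within b2, WARS1 was lower at day 7 in either table (log2 change -0.39, edgeR adjusted p = 0.00221, and -0.40, edgeR adjusted p = 4.8e-04). With the b2 counts of the day 3 and day 7 table, EPRS1 (-0.17) and NARS1 (-0.21) did not pass at day 7. Over all genes tested 7.28% were lower at day 7 and 1.67% at day 3, and the share lower at both times was not counted. The difference between the times was tested directly within the day 3 and day 7 table. TARS1 was higher at day 7 than at day 3, and so was FARS2, the mitochondrial phenylalanyl-tRNA synthetase, where 2.76% of all genes tested were higher and 2.31% lower. TARS1 had 179, 180.3, 197 and 202 CPM at day 7, against 147, 148, 154 and 173 CPM at day 3 (log2 change 0.29 ± 0.08, edgeR adjusted p = 0.017). FARS2 had 27.6, 32.3, 33.4 and 41.3 CPM at day 7, against 20.3, 21.3, 24.9 and 27.6 CPM at day 3 (log2 change 0.51 ± 0.14, edgeR adjusted p = 0.0274). TARS1 did not overlap between the times, and FARS2 met at its highest day 3 and lowest day 7 library.

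Both calls were lost when any one of several libraries was left out. TARS1 did not pass without day 3 b2 10, 11 or 12 or day 7 b2 19 or 20 (edgeR adjusted p of 0.0615 to 0.0719), and FARS2 without day 3 b2 10, 11 or 12 or day 7 b2 18 (0.0557 to 0.106), nor with DESeq2. None of the 19 cytosolic genes was lower at day 7 than at day 3 with edgeR, DESeq2 or limma-voom (7 at an unadjusted p below 0.05 in either direction), and 16 of the 19 log2 changes were positive, with a median of 0.12 beside 0.01 over all genes. GARS1 had 245, 249, 264 and 299 CPM at day 7, against 212, 229.8, 231 and 233 CPM at day 3, without overlap, and a log2 change of 0.22 (edgeR adjusted p = 0.0602). It passed without day 7 b2 library 20, at 0.0466. IARS1 (log2 change 0.26, edgeR adjusted p = 0.0679) passed without day 3 b2 library 9 or day 7 b2 library 17, at 0.0202 and 0.0287.

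**Figure D3:**
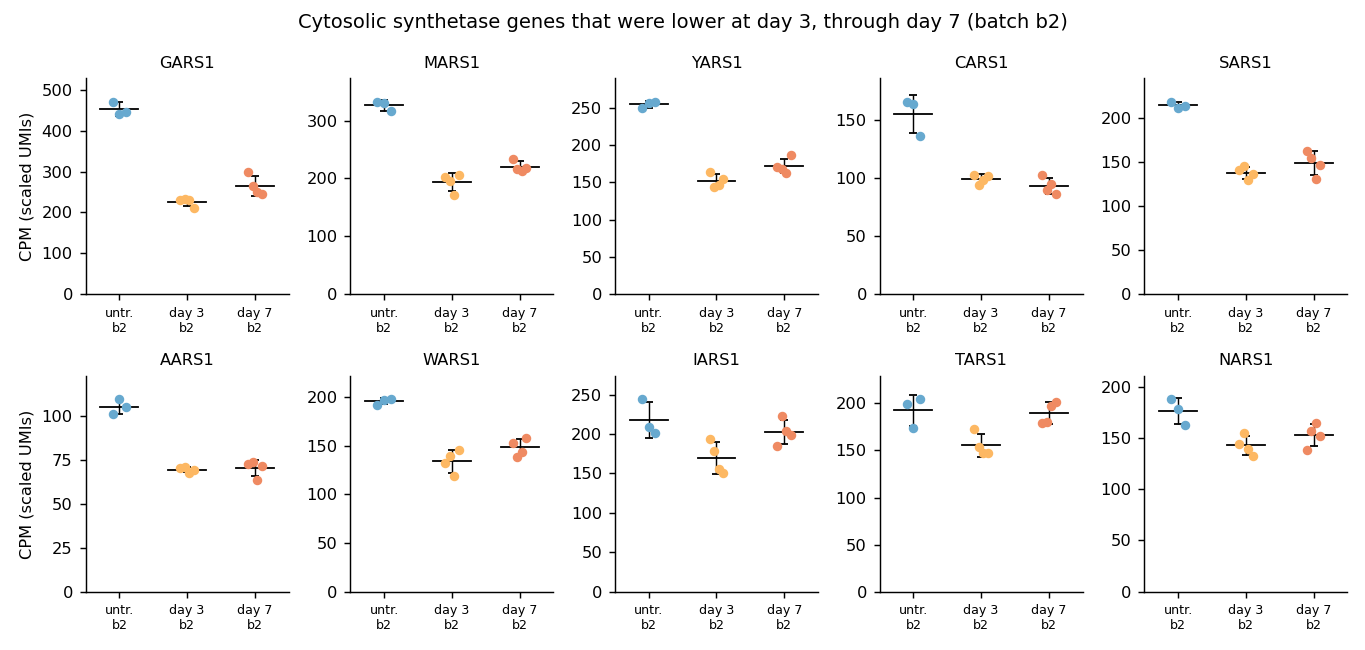
Level (CPM of scaled UMIs) of the 10 cytosolic genes that fell at day 3, in untreated, day 3 and day 7 libraries of b2. Points are libraries, lines are means and bars are 1 SD; TARS1 at day 7 (179 to 202 CPM) is back in the range of the untreated libraries (174 to 204 CPM), and GARS1 (245 to 299 CPM) is not (442 to 471 CPM).

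Summed over the class, the cytosolic genes made 2610 ± 34.5 CPM in day 7 b2 libraries (SD, n = 4), against 3155 ± 60.7 CPM in untreated b2 libraries (SD, n = 3). In b1 the sum was 2324 CPM in the day 7 library, against 2377 ± 46.3 CPM in untreated libraries (SD, n = 3), a difference near the spread of the untreated ones. The mitochondrial genes made 501 ± 22.3 CPM at day 7 in b2, against 474 ± 15.7 CPM untreated, and 348 CPM at day 7 in b1, against 373 ± 9.07 CPM untreated. In the other table the cytosolic sum was 3531 ± 79.1 CPM untreated, 2764 ± 118 CPM at day 3 and 3004 ± 54.1 CPM at day 7, and the mitochondrial sum was 581 ± 15.5, 572 ± 6.66 and 594 ± 16.3 CPM. The ratio of the sums was 6.08 ± 0.263 untreated, 4.82 ± 0.195 at day 3 and 5.06 ± 0.142 at day 7. No day 3 or day 7 library of b2 reached the lowest untreated ratio, while in b1 the ratio was 6.67 in the day 7 library, against 6.37 ± 0.279 in untreated libraries. Sums were not tested.

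**Figure D4:**
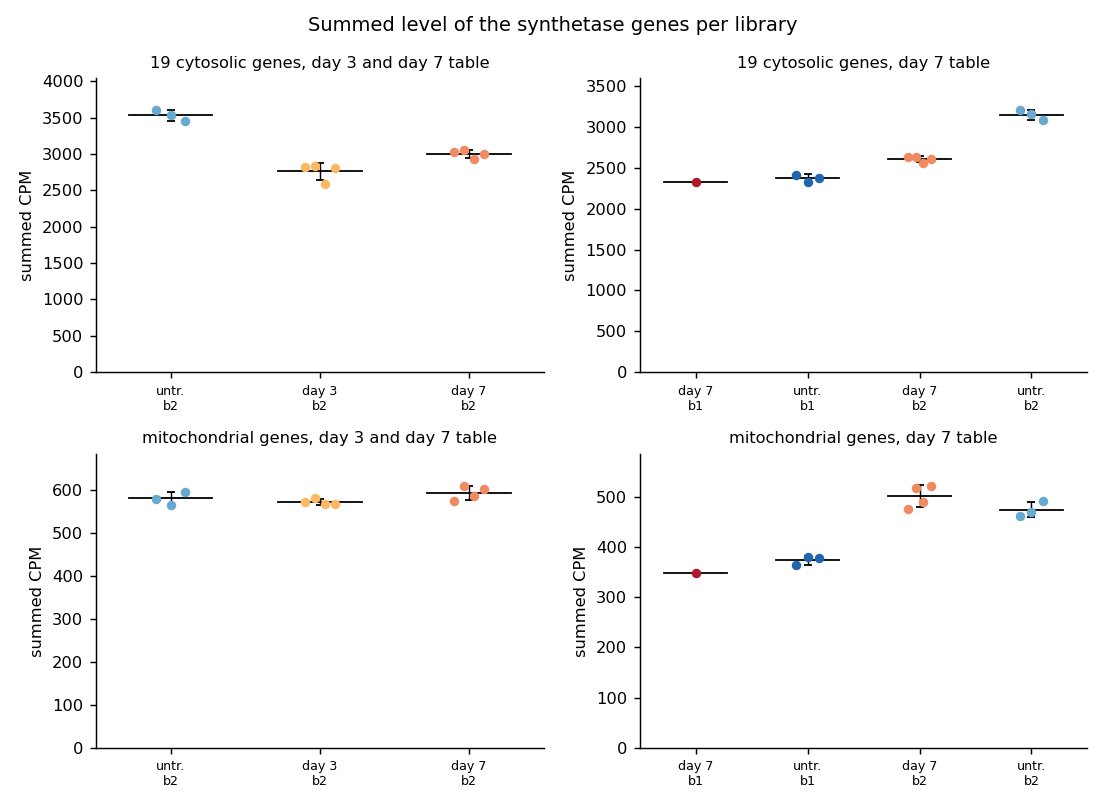
Summed CPM of the cytosolic and of the mitochondrial synthetase genes per library, in each table. Points are libraries, lines are means and bars are 1 SD; in b2 the cytosolic sum averages 2764 CPM at day 3, against 3531 CPM untreated, and the mitochondrial sum 572 CPM against 581 CPM.

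Placed beside the mitochondrial gene of the same amino acid, the cytosolic gene had the lower log2 change in 11 of 15 pairs at day 7 and in 11 of 17 at day 3. EPRS1 (-0.45) stood beside EARS2 (0.52) and SARS1 (-0.48) beside SARS2 (0.32) at day 7. At day 3 SARS1 (-0.64) again stood beside SARS2 (0.30), and MARS1 (-0.75) beside MARS2 (0.03). The pairs with the cytosolic gene higher included RARS1 (0.05) beside RARS2 (-0.34) at day 7 and FARSA (0.26) beside FARS2 (-0.46) at day 3. EPRS1 was paired with both EARS2 and PARS2, and FARS2 with both FARSA and FARSB, so that the pairs are not separate. GARS1, KARS1 and QARS1 had no pair. Pairs were not tested.

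By structural class, which splits the synthetases by the fold of their active site, neither class held all the falls. Over all genes 7.28% were lower and 8.43% higher at day 7, and 1.67% lower at day 3. Class I had 4 lower and 1 higher of 18 tested at day 7, and 5 lower of 19 at day 3. Class II had 4 lower and 3 higher of 15 tested at day 7, and 5 lower of 16 at day 3. Of the 7 enzymes of the multisynthetase complex, EPRS1 and MARS1 were lower and KARS1 higher at day 7, with a median of -0.21, and MARS1 and IARS1 were lower at day 3, with a median of -0.14. Of the 7 cytosolic genes with the ATF4 core in the sites printed above, all 7 were lower at day 3 and 5 at day 7 (GARS1, CARS1, MARS1, AARS1 and NARS1). Of the ATF4 target list, SARS1, WARS1 and EPRS1 had windows without a match. SARS1 was lower at both times, WARS1 at day 3 (log2 change -0.54) and EPRS1 at day 7 (log2 change -0.45). YARS1, which had no window, was lower at both times. YARS2, the mitochondrial gene with a match, had log2 changes of 0.10 at day 7 and -0.02 at day 3. Over both batches at day 7 and in b2 at day 3, the 12 known ATF4 targets all had negative log2 changes. The medians were -0.40 at day 7 and -0.57 at day 3. In b1, with 1 day 7 library, MARS1 (0.20) and WARS1 (0.21) were positive at day 7 and the others negative. Without doxycycline 11 of the 12 were higher in b2 than in b1 and 1 was lower, with a median of 0.72. Over all genes 24.4% were higher and 25.9% lower. The list was drawn up with earlier results of these data known, and its direction is no independent support.

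Untreated b2 libraries were compared with untreated b1 libraries to see how the genes vary without doxycycline. Of 18 cytosolic genes tested 11 were higher in b2 and 3 lower, and of 15 mitochondrial genes 6 were higher and 1 lower, where 24.4% of all 12040 genes tested were higher and 25.9% lower. GARS1 differed by 1.25 ± 0.07 on the log2 scale, EPRS1 by 1.2 ± 0.10, LARS1 by 1.18 ± 0.09 and CARS1 by 1.05 ± 0.09, all higher in b2 (edgeR adjusted p of 2.9e-14, 5.2e-10, 1.2e-11 and 1.3e-10). Of all the synthetase genes that passed at day 7, only SARS1, AARS1 and KARS1 had a gap between the batches smaller than their day 7 change, regardless of sign. IARS1 (0.84), NARS1 (0.75), TARS1 (0.68), YARS1 (0.60), MARS1 (0.59), WARS1 (0.29) and SARS1 (0.25) were also higher in b2. FARSA (-0.91 ± 0.08), HARS1 (-0.61 ± 0.07) and AARS1 (-0.21 ± 0.08) were lower in b2. FARSA and HARS1 thus rose at day 7 and were lower in b2 without doxycycline.

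Among the mitochondrial genes SARS2 (1.26 ± 0.17), TARS2 (1.16 ± 0.12), EARS2 (0.62 ± 0.18), AARS2 (0.49 ± 0.13), NARS2 (0.48 ± 0.19) and FARS2 (0.42 ± 0.14) were higher in b2, and HARS2 (-0.42 ± 0.12) was lower. AARS1 did not pass without untreated b2 1, 2 or 4 or untreated b1 1 or 2 (edgeR adjusted p of 0.0748 to 0.15), and NARS2 not without untreated b2 2 or 4 or untreated b1 1 or 3 (0.0662 to 0.173). FARS2 did not pass without untreated b1 1 or 2 (0.0549 and 0.0612), nor HARS2 without untreated b2 2 (0.0513). RARS1 passed without untreated b2 4 or untreated b1 3 (0.0162 to 0.0464), WARS2 without untreated b2 2 or untreated b1 3 (0.0133 to 0.0371), CARS2 without untreated b2 1 (0.0397) and IARS2 without untreated b2 2 (0.00887). Batch b1 supplied 1 of 5 day 7 libraries and 3 of 6 untreated ones. A fit of day 7 without the batch term left SARS1 as the only cytosolic gene called and no mitochondrial one. Within b2 alone 9 cytosolic genes were lower and 3 higher.

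The day 7 effects of the batches were set against each other, with the 1 day 7 library of b1 assumed to vary like the other libraries, since it has no spread of its own. The difference of the effects, b2 minus b1, was -0.73 ± 0.13 on the log2 scale for MARS1 (edgeR adjusted p = 0.00206), -0.61 ± 0.14 for WARS1 (edgeR adjusted p = 0.0158) and -0.52 ± 0.14 for YARS1 (edgeR adjusted p = 0.041). These were 3 of 18 cytosolic genes, where 2.44% of all 13371 genes tested passed in either direction, and 0 of 15 mitochondrial genes passed with edgeR or with limma-voom, with 1 at an unadjusted edgeR p below 0.05. In b2 the log2 changes were -0.52 for MARS1, -0.39 for WARS1 and -0.56 for YARS1, and in b1 0.20, 0.21 and -0.05. GARS1 (-0.74 in b2 and -0.45 in b1) and CARS1 (-0.73 and -0.43) were lower in each batch. For MARS1 and WARS1 the signs differed between the batches.

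**Figure D5:**
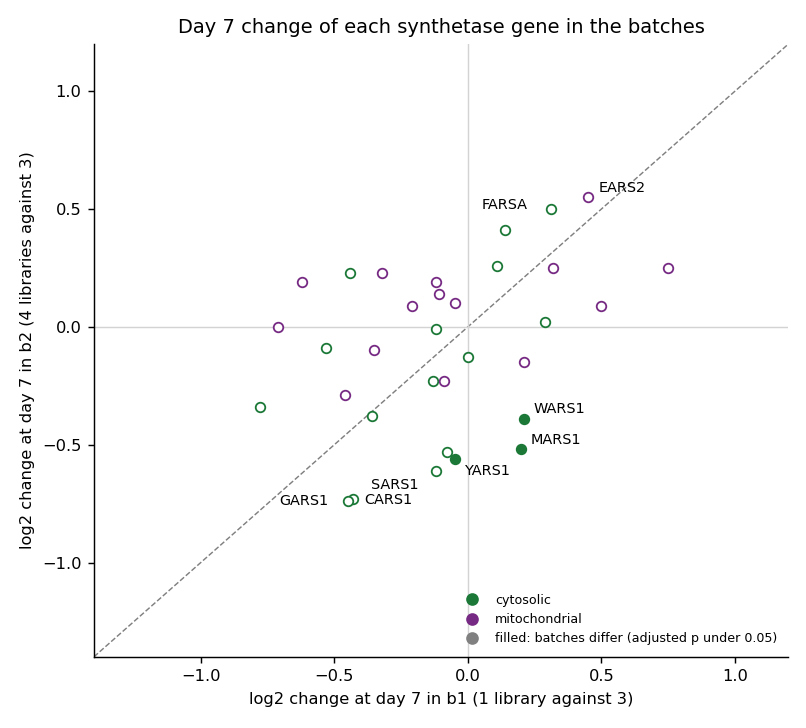
Log2 change at day 7 in b2 (4 libraries against 3 untreated) against that in b1 (1 library against 3 untreated), for each synthetase gene tested; the dashed line marks equal changes. MARS1, WARS1 and YARS1, filled, lie under the line, with differences of -0.73, -0.61 and -0.52.

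Genes for partners of these enzymes were examined next. Of the scaffolds of the multisynthetase complex, AIMP2 (0.42 ± 0.08, edgeR adjusted p = 0.00121) and EEF1E1 (0.31 ± 0.10, edgeR adjusted p = 0.0285) were higher at day 7, and 0 of the 3 passed at day 3, with 0 at an unadjusted p below 0.05. AIMP2 was also higher at day 7 than at day 3 (0.29, edgeR adjusted p = 0.0168). Of 6 cytosolic elongation factors, which bring charged tRNA to the ribosome or move it on, EEF1A2 alone passed, lower at day 7 (-0.52 ± 0.14, edgeR adjusted p = 0.0136) and at day 3 (-0.73 ± 0.17, edgeR adjusted p = 0.0132). EEF2 was lower at day 7 than at day 3 (-0.20, edgeR adjusted p = 0.0468). Of 12 mitochondrial partners, the elongation factor TUFM (0.22 ± 0.07, edgeR adjusted p = 0.0353) and the ribosome recycling factor MRRF (0.34 ± 0.11, edgeR adjusted p = 0.039) were higher at day 7, a small count where 8.43% of all genes were higher. At day 3, 0 of 11 passed and 0 had an unadjusted p below 0.05. Of genes for tRNA export and end maturation, ELAC2, which trims the 3′ end of tRNA precursors, was higher at day 7 (0.29 ± 0.07, edgeR adjusted p = 0.00484), 1 of 5 tested. RTCB, the tRNA ligase, was higher at day 7 than at day 3 (0.24, edgeR adjusted p = 0.0258).

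Upstream and beside the synthetases, ATF4 itself did not pass at day 7 (-0.08 ± 0.07, edgeR adjusted p = 0.511) or day 3 (-0.18 ± 0.07, edgeR adjusted p = 0.167) as a transcript. Its day 7 effect in b2 minus that in b1, where 1 day 7 library stands alone, was -0.48 ± 0.12 (edgeR adjusted p = 0.0315). EIF2AK2, the interferon-induced eIF2alpha kinase PKR, was lower at day 7 (-0.70 ± 0.13, edgeR adjusted p = 6.2e-04), and PPP1R15A, which directs eIF2alpha dephosphorylation, was higher (0.29 ± 0.09, edgeR adjusted p = 0.0323). These were 2 of 8 genes of that list, a small count where 7.28% of all genes were lower and 8.43% higher. At day 3, 0 of the 8 passed and 3 had an unadjusted p below 0.05. Of the 25 amino acid response genes, 11 of 23 tested were lower at day 7 and 0 higher, and 13 of 25 were lower at day 3 and 0 higher, where 7.28% of all genes were lower at day 7 and 1.67% at day 3. In either direction 13 at day 7 and 17 at day 3 had an unadjusted edgeR p below 0.05. Among them at day 7 were NUPR1 (-2.30 ± 0.25), PYCR1 (-0.58 ± 0.09), TRIB3 (-0.82 ± 0.15), MTHFD2 (-0.42 ± 0.09) and SLC7A11 (-1.86 ± 0.40). At day 3 they included ASNS, asparagine synthetase (-1.86 ± 0.10), PSAT1 (-1.66 ± 0.09), PCK2 (-1.49 ± 0.11) and CBS (-0.85 ± 0.09). Over the amino acid response genes the day 7 effect in b2 minus that in b1 had a median of -0.54. It was negative for 20 of 23 genes, and its b1 side rests on 1 day 7 library. Without doxycycline 14 of 23 genes of this list were higher in b2 than in b1 and 3 lower. Over all genes 24.4% were higher and 25.9% lower.

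The 6 listed astrocyte markers summed to 8200 to 9950 CPM in day 7 b2 libraries, against 7070 to 8260 CPM in untreated b2 libraries, and 6840 CPM in the day 7 b1 library, against 6640 to 7360 CPM in untreated b1 libraries. VIM made up most of this sum, and the markers did not move together. Of the 5 tested at day 7, 2 were higher and 1 lower, where 8.43% of all genes were higher and 7.28% lower. Their log2 changes ran from -0.83 to 0.64. Markers of other cells moved with the same groups. Of 6 fibroblast and pericyte markers 4 were listed, and their summed level was 447 to 651 CPM in day 7 b2 libraries, against 837 to 883 CPM in untreated b2 libraries, and 991 CPM in the day 7 b1 library, against 992 to 1070 CPM in untreated b1 libraries. In the other table the sum was 1230 to 1290 CPM untreated, 1030 to 1070 CPM at day 3 and 789 to 1010 CPM at day 7, with DCN and LUM not listed. Of 5 keratinocyte markers 4 were listed, at 606 to 653 CPM in day 7 b2 libraries, against 659 to 693 CPM untreated, and 754 CPM in the day 7 b1 library, against 1040 to 1090 CPM untreated. In the other table their sum was 744 to 768 CPM untreated, 764 to 876 CPM at day 3 and 673 to 709 CPM at day 7. Of 5 neuron markers 2 were listed in the day 7 table, at 11.2 to 14.3 CPM in day 7 b2 libraries, against 14.8 to 17.2 CPM untreated, and 10.8 CPM in the day 7 b1 library, against 11.3 to 13.5 CPM untreated. The other table listed 3 of them, with TUBB3, and their sum was 78.2 to 91.8 CPM untreated, 120 to 134 CPM at day 3 and 107 to 169 CPM at day 7, with RBFOX3 and STMN2 in neither table. Of 5 microglia and 4 endothelial markers 1 each was listed, at no more than 3.98 and 1.80 CPM in the day 7 table, and 3.18 and 2.17 CPM in the other. The microglia marker, CSF1R, was higher at day 7 (log2 change 1.51) at these low levels. The part of all these markers in the changes of the synthetase genes was not tested.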

How the data were processed

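Both tables hold UMI counts, whole numbers per gene and library, deposited by the authors. Per the submitters' processing notes they used bcl2fastq, cutadapt, STAR 2.4.2a, HTSeq and DESeq2 on hg38. The sources used here do not say how reads that fit several genes were counted, and 11 of the 35 genes have a total of 14 pseudogenes named after them in GENCODE release 29. The tables were fitted separately, since the same libraries have different counts in them. The older symbols of 17 cytosolic genes in the day 3 and day 7 table were matched to the current ones, and 55 columns of other per-sample values were not used. Each table lists genes with at least 6 counts in some library.

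After filterByExpr and TMM scaling, genes were tested with edgeR 4.0.16 (robust quasi-likelihood, R 4.3.3), with Benjamini-Hochberg adjustment over all genes tested and a threshold of 0.05. The fits were tested on simulated data. The common biological coefficient of variation was 0.0991 at day 7 and 0.0843 in the other table. Alternatives were DESeq2 1.42.0, limma-voom (limma 3.58.1), other scalings and filters, no batch term, b2 alone, the other table's counts, a replicate block and leaving out each library. CPM used TMM-scaled library sizes. Promoter sequences are from RefSeq and gene coordinates from GENCODE, both on GRCh38, the build of the files. Figures used matplotlib 3.10.9 in Python 3.11.15. The synthetase genes and all lists were chosen with earlier results of these data known. Genes that passed are described per library, as are the 3 most abundant others of each class at day 7. Of the other lists, up to 5 called genes with the smallest p were named, and up to 6 of the amino acid response.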

Additional observations from a re-analysis of the deposited data

Results flagged for a closer look

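In 6 of 103 groups of 4 libraries, 1 library stood apart from the rest by a gap above Dixon's 95% limit for the share of the range, where chance flags about 1 in 20. AARS1 had 52.2 CPM in day 7 b2 library 19, against 60.5 to 61.6 CPM in the other 3. GARS1 had 212 CPM in day 3 b2 library 12, where the others had 229.8 to 233 CPM. IARS2 had 46.8 CPM in day 3 b2 library 9, and 66.0 to 67.6 CPM in the others. LARS1 in the day 3 and day 7 table had 78.9 CPM in day 7 b2 library 17, beside 93.1 to 95.3 CPM. CARS2 had 130 CPM in day 7 b2 library 20, above 118 to 119.6 CPM, and VARS1 in the day 3 and day 7 table had 167 CPM in day 7 b2 library 18, above 148 to 151 CPM.

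The day 7 effect in b2 minus that in b1 passed the test for MARS1 (-0.73 on the log2 scale), WARS1 (-0.61) and YARS1 (-0.52). The b1 side of each rests on 1 day 7 library, which was assumed to vary like the others, so that a library that stands apart and a batch that does cannot be told apart.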

How the results depend on the processing

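No call of a synthetase gene changed direction under any alternative run. At day 7 the 1955 genes called became 323 without the batch term, the 11 cytosolic genes became 1 and the 1 mitochondrial gene 0, and the cause was not tested beyond the difference between untreated b2 and b1. Library size alone called 2 mitochondrial genes at day 7. Leaving out 1 library called 0 to 2 mitochondrial genes at day 7, and 191 to 578 genes at day 3, where all libraries called 372. Without the untreated libraries of shared names, an alternative chosen after seeing the data, 40 genes and 6 cytosolic genes were called at day 3, with fewer samples. Between day 7 and day 3, DESeq2 called 0 mitochondrial genes, and leaving out 1 library called 0 to 2 cytosolic and 0 to 1 mitochondrial genes. Between untreated b2 and b1, DESeq2 called 4 mitochondrial genes, and a replicate block on the numbers in the titles, which the groups only share, called 5317 genes in place of 6061, with 14 cytosolic and 7 mitochondrial genes. AARS1 and NARS2 no longer passed under it, and RARS1 and WARS2 did. For the difference between batches, limma-voom called 157 genes in place of 326. Of the cytosolic genes, 18.8% had the motif in the 250 bases before the start alone, in place of 43.8%. The mitochondrial genes with the lowest levels, MARS2, PARS2 and WARS2, averaged 7.26, 7.72 and 7.06 CPM in the day 7 table.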
